A study of Neurospora crassa with 6 samples.

Results

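The genes described here are 109 loci of the filamentous fungus Neurospora crassa that the deposited table lists by a locus tag (NCU followed by a number) and not by a gene symbol, and whose transcripts were most abundant under the brighter of 2 lights. They were chosen by their measured values: a row starting with NCU and with at least 1 RPKM (a read count divided by gene length and by library size) in 2 libraries, with both 5000 lux libraries above all 4 other libraries, and with the 5000 lux mean of log2(RPKM + 1) at least 0.3 above both the dark mean and the 1000 lux mean. The rule set 2 NCU rows aside, NCU01735 and NCU01633. Among the 10559 genes listed, 6757 NCU rows reached the minimum level, and the 109 members are 1.61% of these. Because the rule used the levels in all 6 libraries, the differences between 5000 lux and the other conditions are given below as descriptions of the choice, and counts of members called in those comparisons are no independent evidence for them.

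Polyadenylated RNA of hyphae was sequenced in 6 libraries. The conditions were darkness, 1000 lux and 5000 lux, with 2 libraries each, after 45 min of culture in medium with 2% glucose that followed growth on minimal slants. Every library, the dark ones included, comes from a strain whose genotype is given as delta_cry, delta_vvd and delta_wc-1. The series thus has no strain with these genes intact, so light responses cannot be set against those of a strain with its photoreceptors. Whether the 2 libraries of a condition are separate cultures is not stated in the labels, so a p-value covers only the spread between the samples at hand.

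In Neurospora, blue light is sensed mainly by White Collar-1, a photoreceptor that is also a transcription factor and acts together with White Collar-2. VIVID is another blue-light photoreceptor, which dampens the response as light persists, and the cryptochrome is a further one. Opsin and phytochrome genes also stand in the genome and are not part of this triple deletion. A locus tag marks a gene model in the genome annotation. For none of the 109 members did the reference gene table used here hold a symbol, so no function is assigned to any of them.

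Whole reads recovered from the steps between the RPKM values came to 16451977 to 21619625 on genes per library, and in a gene 2000 bp long 1 read is worth 0.0177 to 0.0233 RPKM. The 3 genes labelled as deleted were listed at 1.59 to 9.04 RPKM in the 6 libraries, above 0, and with 1 value per gene the part of the gene behind those reads is unknown. Of 7 genes of conidiation (eas, con-6, con-8, con-10, fl, acon-3 and csp-1), the development that hyphae can enter, 0 were at 0 in all libraries. Their summed level was 237 to 279 RPKM in darkness, 142 to 150 under 1000 lux and 233 to 303 under 5000 lux, and without eas, the hydrophobin gene, it was 63.4 to 66.6, 71.9 to 74.1 and 63.2 to 72.0 RPKM. Only fl and csp-1, which encode regulators of conidiation, lay highest in both 5000 lux libraries, 2 of the 7. Their part in the levels of the members was not tested. In bulk RNA, fewer cells of a kind and less RNA per cell cannot be told apart.

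Highest expression at 5000 lux was not the most frequent of such patterns. The same rule turned to other conditions chose 360 NCU genes as highest in darkness (5.33% of 6757) and 188 as highest at 1000 lux (2.78%), and turned upside down it chose 96 as lowest at 5000 lux (1.42%). Among the 1082 genes that the table lists by a symbol and that reached the minimum level, 19 (1.76%) met the rule for 5000 lux, a share close to the 1.61% of NCU genes.

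Both 5000 lux libraries lay above the other 4 in 723 NCU genes, and the margin of 0.3 left 109 of these. A further 12 genes had both margins but a 5000 lux library that did not exceed all others. Just inside the margin were NCU08455 at 0.3007, NCU00798 at 0.3013 and NCU07497 at 0.3021, and just outside it were NCU03126 and NCU04008 at 0.2999 each and NCU05045 at 0.2996, on the log2 scale. NCU08455 averaged 1.16 RPKM in darkness, 1.29 under 1000 lux and 1.82 under 5000 lux, and NCU04008 just outside averaged 3.17, 3.85 and 4.97 RPKM.

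**Figure D1:**
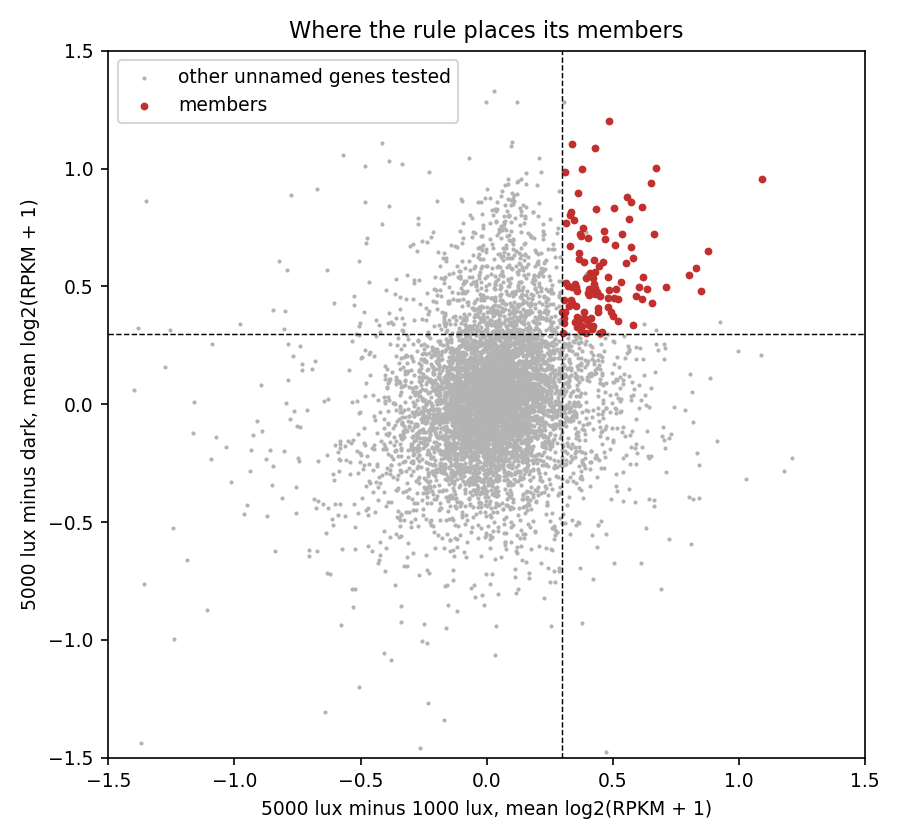
Each point is an NCU gene that reached the minimum level; the x axis is its 5000 lux minus 1000 lux difference and the y axis its 5000 lux minus dark difference, both in mean log2(RPKM + 1). The 109 members (red) fill the upper right corner beyond the dashed margins of 0.3, next to a dense cloud of other genes, and 11 other genes lie outside the axes.

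The members were genes of modest level. Their median RPKM was 6.18 for darkness, 6.63 for 1000 lux and 9.12 for 5000 lux, against 12.5, 12.8 and 13.1 RPKM over the other 6648 NCU genes that reached the minimum. At 5000 lux 19 members averaged under 3 RPKM, 83 lay from 3 to under 100 RPKM and 7 were at 100 RPKM or above. Their recovered gene lengths had a median of 2150 bp, close to the 2080 bp of the other NCU genes, with a range from 285 to 7890 bp. In the reference, 106 of the 109 are protein-coding, and NCU14045, NCU14097 and NCU14113 are noncoding RNA genes, 2.75% against 1.56% (104 of 6648) of the other NCU genes.

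The differences were small on the scale used. The margin over the higher of the other 2 means ran from 0.3 to 0.95, with a median of 0.4. The 5000 lux mean exceeded the dark mean by a median of 0.5 (range 0.3 to 1.2) and the 1000 lux mean by a median of 0.43 (range 0.3 to 1.09), where all 7841 genes tested had medians of 0.02 and 0.03. For comparison, the median gap between the 2 libraries of a condition in the members was 0.2 in darkness, 0.15 at 1000 lux and 0.12 at 5000 lux. In RPKM without a pseudocount, 25 members averaged at least 1.5 times both other means at 5000 lux, and 3 at least 2 times. These 3, NCU16418, NCU01946 and NCU16852, are all genes of low level.

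**Figure D2:**
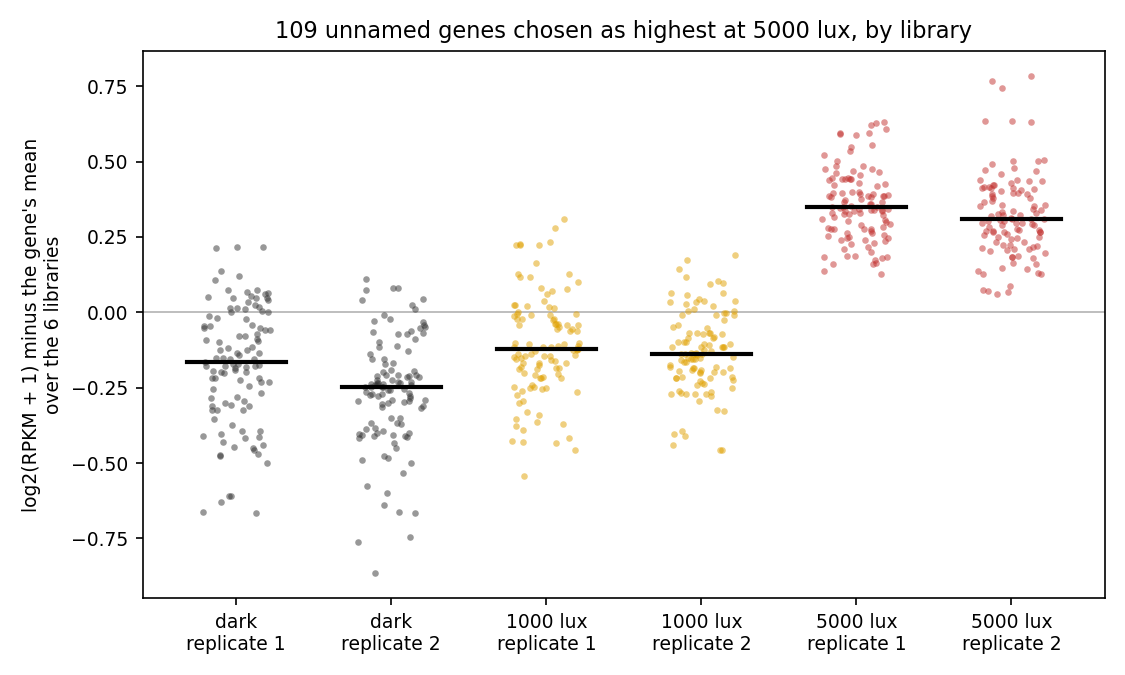
Each point is 1 of the 109 members in 1 library, as log2(RPKM + 1) minus that gene's mean over the 6 libraries, and black bars are medians. The medians were -0.16 and -0.25 in the dark libraries, -0.12 and -0.14 at 1000 lux, then 0.35 and 0.31 at 5000 lux. The rule sets the gap below the 5000 lux libraries and also limits how low a member can lie in them, with minima of 0.13 and 0.06.

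Among well-covered members with a wide margin, NCU04699 had the highest level of those without an overlapping gene. It had 38.6 and 45.7 RPKM in darkness, 49.4 and 48.9 at 1000 lux, then 75 and 76.8 at 5000 lux, from 1335 to 2987 reads per library. NCU00285 had 6.22 and 6.82 RPKM in darkness, 8.42 and 8.43 at 1000 lux, then 13.3 and 14.8 at 5000 lux. Both genes stood in 3 separate tiers, with each 1000 lux library above both dark libraries and below both 5000 lux libraries.

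The same 3 tiers appeared in NCU09209, NCU04622, NCU00992, NCU06005 and NCU09771. The rule itself sets the upper tier. Both 1000 lux libraries lay above both dark libraries in 31.2% of members and in 30.3% of all genes tested. Limma called none of these genes, nor NCU04699 or NCU00285, at 1000 lux against darkness. NCU09209 had 14.8 and 13.8 RPKM in darkness, 17.1 and 19.2 at 1000 lux, then 29.4 and 25.1 at 5000 lux. NCU04622 had 20.3 and 15.4, 23.8 and 21.2, and 31.0 and 33.8 RPKM at the same 3 steps. The dark and 1000 lux tiers nearly met in NCU04622, and also in NCU04699 above, NCU00992, NCU06005 and NCU09771. NCU00992 had 7.13 and 8.05, 10.4 and 8.60, and 15.3 and 13.8 RPKM in the same order, and NCU06005 had 4.55 and 5.01, 5.27 and 6.23, and 9.03 and 8.88. NCU09771 had 3.34 and 4.74, 5.16 and 5.02, and 7.02 and 10.4 RPKM, with the 5000 lux libraries farther from each other than the lower one was from 1000 lux.

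In other members the dark and 1000 lux libraries overlapped, which does not always mean a smaller mean step. The 1000 lux mean was 1.18 times the dark mean in NCU07314 and in NCU02080, and 1.17 times in NCU04699 above. NCU00298 had 6.66 and 8.84 RPKM in darkness, 6.81 and 6.06 at 1000 lux, then 11.5 and 13.9 at 5000 lux. NCU07314 had 3.83 and 4.46, 5.32 and 4.43, and 7.63 and 7.34 RPKM in the same order, and NCU02702 had 4.07 and 4.82, 4.11 and 4.15, and 8.10 and 5.85. In all 3 the dark and 1000 lux libraries were interleaved, and only the 5000 lux pair stood apart. NCU06524 had 9.22 and 7.34 RPKM in darkness, 9.67 and 6.85 at 1000 lux, then 15.1 and 9.93 at 5000 lux, and NCU02080 had 4.84 and 4.17, 6.80 and 3.86, and 7.27 and 8.30. In both of these the lower 5000 lux library stood only just above 1000 lux replicate 1.

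The widest margins include several members near the minimum level, where few reads lie behind a value. NCU16418, first by margin, had 1.90 and 0.684 RPKM in darkness, 1.07 and 0.942 at 1000 lux, then 3.10 and 3.47 at 5000 lux, from 42, 19, 24, 24, 79 and 73 reads. NCU01946, a model of 285 bp, rested on 6 and 11 reads in the dark libraries, 10 and 7 at 1000 lux, then 18 and 16 at 5000 lux. NCU16852 had 0.921 and 0.821 RPKM in darkness, 0.482 and 0.659 at 1000 lux, then 1.41 and 2.11 at 5000 lux, from 9 to 37 reads per library. NCU05651, NCU08702, NCU16385 and NCU04933, also among the 20 widest margins, had 19 to 78 reads in each library.

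**Figure D3:**
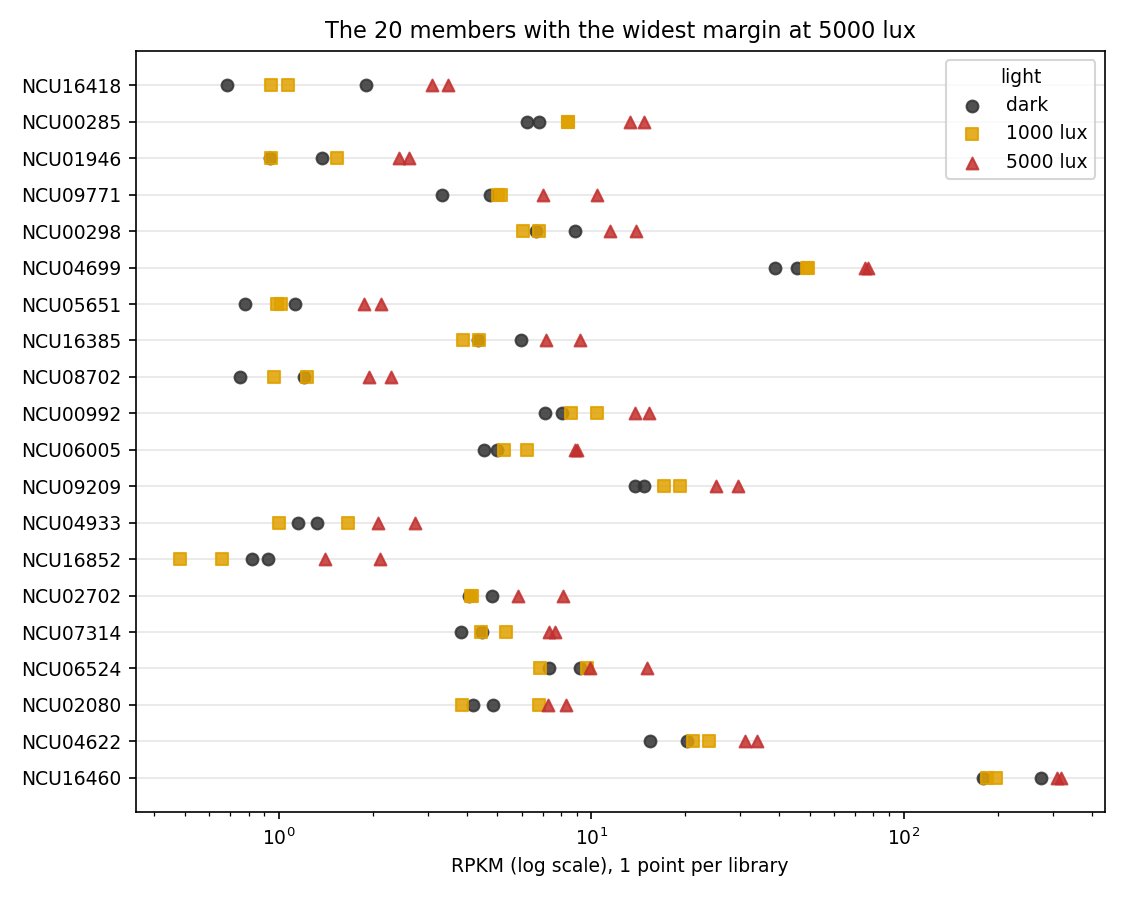
The 20 members with the widest margin, from top to bottom, with 1 point per library on a log RPKM axis. The 5000 lux triangles lie right of all dark circles and 1000 lux squares in every row, by the rule, with NCU06524 the closest: its lower 5000 lux library is at 9.93 RPKM and its higher 1000 lux library at 9.67.

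How far the 5000 lux libraries cleared the rest varied widely. The lower 5000 lux library was a median of 1.19 times the highest other library, with quartiles of 1.11 and 1.28 and a maximum of 1.66, and was under 1.1 times it in 23 members. The narrowest case was NCU06714, at 7.67 RPKM in 5000 lux replicate 1 against 7.66 in dark replicate 1. The highest library outside 5000 lux was 1000 lux replicate 1 in 35 members, dark replicate 1 in 31, 1000 lux replicate 2 in 27 and dark replicate 2 in 16. Neither 5000 lux library was consistently the higher, with replicate 1 above replicate 2 in 57 of 109.

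The list depended on single libraries. The rule applied without 5000 lux replicate 2 gave 228 genes, 91 of them members. It gave 166 genes (81 members) when 5000 lux replicate 1 was left out, and 184 (94 members) when 1000 lux replicate 1 was. Leaving out any other library gave 105 to 161 genes, of which 83 to 102 were members.

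In the fit across all 7841 genes that reached the minimum (limma, adjusted p under 0.05), 51 of the 109 members were called higher at 5000 lux than in darkness, where 6.7% of all genes were, and 22 were called higher at 5000 than at 1000 lux, where 1.66% of all genes were. The members were chosen on these very differences, so nothing further is read from these counts. Of the 109, 17 were called in both comparisons and 53 in neither, without a share over all genes to set beside them. The members called against darkness fell sharply in number when either 5000 lux library was left out, and so did the calls over all genes. Those called against 1000 lux fell sharply without any 1 library of either light and rose without either dark library. The calls over all genes moved the same way. With all 6 libraries, 90 members had an unadjusted limma p under 0.05 against 1000 lux, and the share of all genes at that threshold is not given. Voom with all 6 libraries called 36 members higher against 1000 lux, and 203 of all 7840 genes.

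The members at 100 RPKM or above differed in their profiles. NCU08923, the most abundant member, had 214 and 212 RPKM in darkness, 314 and 305 at 1000 lux, then 405 and 391 at 5000 lux. NCU08976 had 199 and 193, 204 and 221, and 267 and 304 RPKM at the same steps, and NCU01689 had 135 and 127, 146 and 143, and 174 and 183. The libraries of the 3 conditions did not overlap in these 3 genes. In NCU06660, which overlaps NCU06659 in the reference, the dark and 1000 lux libraries were interleaved, with 216 and 186 RPKM in darkness, 208 and 176 at 1000 lux, then 272 and 236 at 5000 lux.

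NCU16460 was the other abundant member with a wide margin, and its dark libraries disagreed. It had 275 and 179 RPKM in darkness, 185 and 197 at 1000 lux, then 310 and 318 at 5000 lux, so 1 dark library lay close to the 5000 lux pair. In the reference annotation its span overlaps ada-1, which had 108 and 110 RPKM in darkness, 105 at 1000 lux in both libraries, then 142 and 147 at 5000 lux and met the same rule. The strand setting of the counting is not given in the sources used here, so how reads in the stretch shared by these genes were assigned is unknown.

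Overlapping gene models had a similar share among the members and elsewhere. In the reference 32 of 109 members (29.4%) overlap another gene, against 1892 of 6648 other NCU genes (28.5%). Of 35 overlapping partners with deposited values, 33 reached the minimum level, and 5 met the whole rule: ada-1 and 4 that are members themselves. Among all NCU genes at the minimum level 1.61% met it. The 5000 lux mean lay above both others in 16 of the 33, these 5 included, and in 33.5% of NCU genes that are not members. These shares were not tested against each other. NCU16385, which overlaps NCU03086, had 4.34 and 5.95 RPKM in darkness, 3.89 and 4.36 at 1000 lux, then 9.19 and 7.14 at 5000 lux. NCU03086 had 3.93 and 3.63, 4.16 and 4.75, and 4.40 and 4.04 RPKM in the same order, and did not meet the rule.

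The rule treats darkness and 1000 lux alike, so the step between these 2 conditions was not chosen by its sign, although the same 4 libraries took part in the choice. At 1000 lux 9 of 109 members (8.26%) were called higher than in darkness, where 9.13% of all genes tested were, and 0 were called lower, where 7.82% of all genes were (limma, adjusted p under 0.05). At an unadjusted p under 0.05 limma gave 19 higher and 1 lower. The share of all genes at that threshold is not given, so nothing is read from these counts. Voom on the recovered reads, with adjusted p under 0.05, gave 9 higher and 0 lower. Of all 7840 genes in that fit it called 763 higher and 745 lower. Without dark replicate 2 limma called 2 members lower, NCU02882 and NCU16460, and 6 higher; in both genes dark replicate 1 was well above replicate 2. The count of higher calls was 3 without 1000 lux replicate 1.

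Both 1000 lux libraries lay above both dark libraries in 34 members (31.2%), close to the 30.3% of all genes tested. They lay below in 6 members (5.5%), where 28.5% of all genes did, and in the remaining 69 the libraries overlapped. The median 1000 lux minus dark difference was 0.06 in the members and 0 in all genes tested, with 69 members above 0 and 40 below. Whether this balance differs from that of other genes was not tested.

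**Figure D4:**
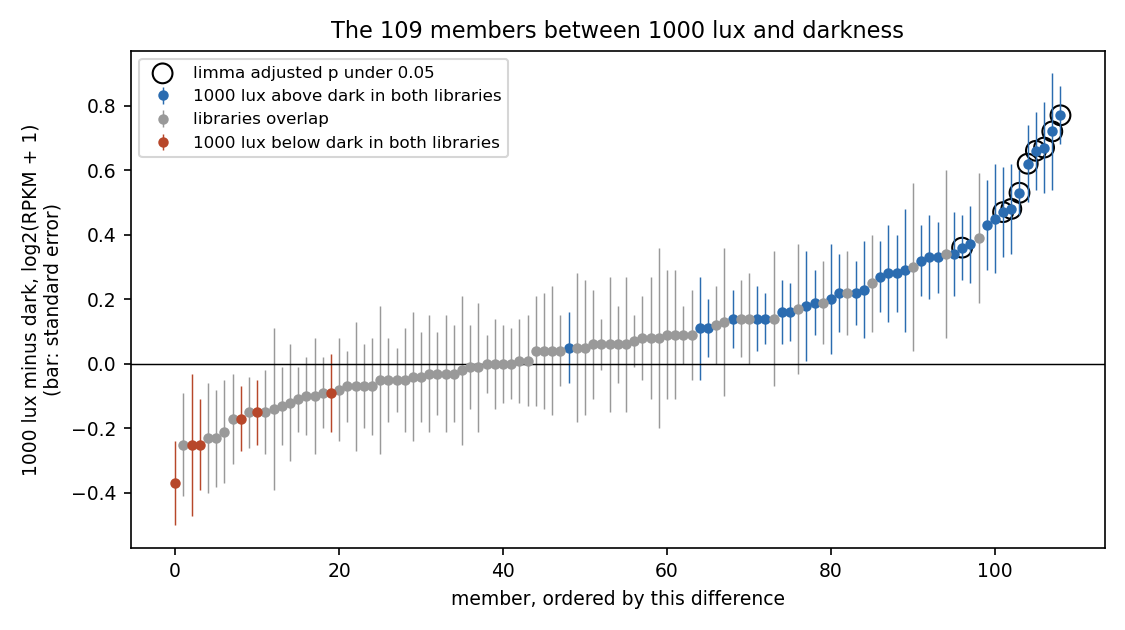
The 1000 lux minus dark difference in log2(RPKM + 1) for each of the 109 members, in rising order, with limma standard errors as bars. The 9 circled members passed the test, all on the higher side from 0.36 to 0.77, and the lowest member, NCU08226, is at -0.37.

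In 8 of the 9 members called, the 1000 lux minus dark difference was larger than the 5000 minus 1000 lux difference. These 9 were picked by a large 1000 lux minus dark difference, so this order follows in part from the choice. NCU09210 had 58.3 and 52.1 RPKM at 1000 lux against 32.3 and 31.6 in darkness, which is 0.77 higher on the log2 scale (SE 0.09, limma adjusted p = 0.00084), and 72.5 and 67.3 RPKM at 5000 lux. NCU08923, whose levels are given above, had a log2 fold change of 0.53 (SE 0.07, limma adjusted p = 0.001693). These 2 calls held in every alternative run, with log2 fold changes of 0.69 to 0.85 for NCU09210 and 0.43 to 0.56 for NCU08923.

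NCU09497 had 59.1 and 47.2 RPKM at 1000 lux against 31.3 and 35.1 in darkness (0.66 on the log2 scale, SE 0.12, limma adjusted p = 0.005641), and 76.1 and 67.1 at 5000 lux. NCU01104 had 9.05 and 9.97 RPKM at 1000 lux against 5.26 and 6.45 in darkness (0.62, SE 0.12, limma adjusted p = 0.00801), and 13.0 and 12.2 at 5000 lux. NCU07956 had 17.4 and 13.1 RPKM at 1000 lux against 9.94 and 8.36 in darkness (0.67, SE 0.14, limma adjusted p = 0.009516), and 19 and 19.1 at 5000 lux. Each of these 3 calls was lost in 1 alternative, without 1000 lux replicate 1 for NCU09497 and NCU07956 (limma adjusted p = 0.0559 and 0.09042) and without 1000 lux replicate 2 for NCU01104 (limma adjusted p = 0.05322).

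The other 4 calls were NCU07661 (0.72), NCU12112 (0.48), the noncoding RNA gene NCU14097 (0.47) and NCU00742 (0.36). NCU07661 had 6.85 and 5.96 RPKM at 1000 lux against 4.26 and 2.85 in darkness (SE 0.18, limma adjusted p = 0.02496). NCU12112 had 7.86 and 5.97 RPKM at 1000 lux against 4.86 and 4.41 in darkness (SE 0.14, limma adjusted p = 0.04612), and NCU00742 had 20.7 and 18.8 against 15.8 and 14.7 (SE 0.10, limma adjusted p = 0.04409). NCU14097 had a limma adjusted p of 0.0449 (SE 0.14). The call of NCU07661 was lost in 5 alternatives, among them without dark replicate 2 or either 1000 lux library. NCU12112 and NCU14097 lost theirs in 11 alternatives each and NCU00742 in 9, and for all 3 these included leaving out either dark library, 1000 lux replicate 1 or either 5000 lux library. NCU14097 and NCU00742 also lost theirs without 1000 lux replicate 2. NCU12112 overlaps NCU03988, and NCU00742 overlaps NCU00741.

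At the other end, NCU08226 had 5.14 and 6.43 RPKM at 1000 lux against 7.36 and 8.09 in darkness (-0.37 on the log2 scale, SE 0.13, limma adjusted p = 0.07261), which missed the threshold, and 11.5 and 10.9 RPKM at 5000 lux. The next lowest differences were in NCU16385, NCU16852 and NCU04932 (-0.25 each), then in NCU00298 and NCU02882 (-0.23 each), and none passed the test. NCU04656, at -0.17, had 75.1 and 73.9 RPKM at 1000 lux against 84.4 and 83.4 in darkness, and 119 and 96.9 at 5000 lux, so its dark libraries lay between the lights.

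Some members lie beside each other in gene order. By the reference annotation 12 of the 109 members (11%) are immediate neighbours of another member, in 6 pairs, while 143 of 6648 other NCU genes (2.15%) lie next to a member. Of the 155 tested NCU genes beside a member, 12 are members (7.74%), against 1.61% of all NCU genes at the minimum level. The other patterns chosen in the same way had shares of the same order, 14.9% of genes highest at 1000 lux, 18.9% of those highest in darkness and 10.4% of those lowest at 5000 lux. The lists differ in length, and adjacency was not tested.

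The pair with the widest margin was NCU04699, described above, with NCU04698, which had 15.5 and 17.3 RPKM in darkness, 17.7 and 18.7 at 1000 lux, then 24.5 and 26.5 at 5000 lux. NCU04698 and NCU04699 both show 3 separate tiers, although the dark and 1000 lux tiers nearly met in each. Their spans do not overlap in the reference. NCU09209 and NCU09210 also stood in 3 tiers, with unequal steps. NCU09209 stood at 0.56 over its 1000 lux mean at 5000 lux and at 0.32 over darkness at 1000 lux (limma adjusted p = 0.06946), while NCU09210 stood at 0.34 and 0.77 on the log2 scale.

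NCU01487 and NCU01486 differ in level, with 114 and 94.6 RPKM in darkness, 109 and 98.5 at 1000 lux, then 143 and 123 at 5000 lux for NCU01487, and 8.13 and 8.37, 9.65 and 9.39, and 13.6 and 12.7 RPKM for NCU01486. NCU07275 had 3.43 and 2.72, 2.99 and 2.72, and 4.37 and 4.69 RPKM, and its neighbour NCU07274 had 2.01 and 0.706, 0.972 and 1.92, and 2.07 and 2.30 RPKM in the same order. In NCU07274 the replicates of darkness and of 1000 lux lay farther apart than the means of any 2 conditions.

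The spans of the last 2 pairs overlap in the reference, and how reads in the shared stretch were assigned is unknown. NCU09794 had 29.5 and 25.5 RPKM in darkness, 23.2 and 26.1 at 1000 lux, then 44.1 and 34.2 at 5000 lux, and NCU09795 had 7.46 and 6.27, 6.71 and 6.56, and 9.93 and 7.92. NCU04932 had 4.56 and 4.24 RPKM in darkness, 3.13 and 4.02 at 1000 lux, then 6.00 and 5.62 at 5000 lux, and NCU04933 had 1.33 and 1.15, 0.999 and 1.67, and 2.73 and 2.07. NCU09795 and NCU04933 were the lower gene of their pair in every library.

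**Figure D5:**
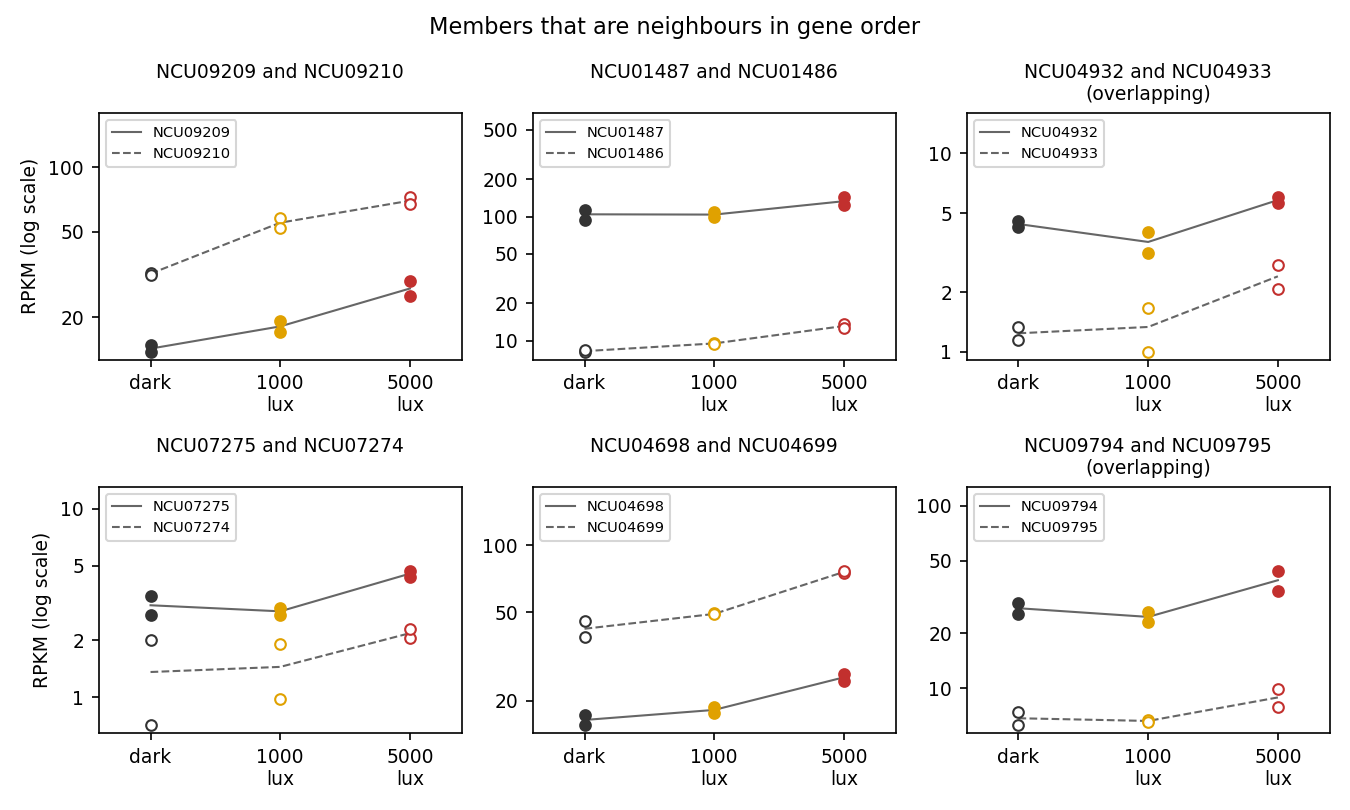
RPKM on a log axis in darkness, at 1000 lux and at 5000 lux for the 6 pairs of members that are immediate neighbours, with 1 point per library, filled for the first gene and open for the second, and lines through the means. Both genes of each pair are highest at 5000 lux, by the rule, and the steps between darkness and 1000 lux differ within pairs, as in NCU09209 (0.32) and NCU09210 (0.77).

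The neighbours that are not members were close to the rest of the genome in this respect. Of the 143 tested NCU genes next to a member that are not members, 52 (36.4%) had their 5000 lux mean above both other means, where 2229 of 6648 NCU genes that are not members (33.5%) did. A symbol gene that met the same rule lay next to 2 members: ada-1 beside NCU16460, and mus-38, a gene named for mutagen sensitivity, beside NCU07441. NCU07441 had 10.2 and 5.86 RPKM in darkness, 11.5 and 9.64 at 1000 lux, then 14.1 and 15.1 at 5000 lux.

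The 3 noncoding RNA genes were of low level. NCU14097, called at 1000 lux against darkness above, had 2.64 and 2.60 RPKM in darkness, 3.78 and 4.27 at 1000 lux, then 5.70 and 4.95 at 5000 lux. NCU14113 had 3.51 and 1.56, 3 and 3.39, and 5.54 and 3.70 RPKM, and NCU14045 had 0.604 and 0.844, 0.498 and 0.832, and 1.62 and 1.11. Only NCU14097 had separate tiers, and in the other two the libraries of darkness and 1000 lux were interleaved.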

How the data were processed

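RPKM values were deposited by the authors as a single table, 1 column for each of the 6 libraries. CASAVA 1.8 and HISAT are named, per the submitters' processing notes, with no role. Not given in the sources used here are the build, annotation, gene lengths, counting tool and strand setting. For names, a RefSeq gene table of the assembly NC12 was joined on locus tags and symbols (10524 of 10559 genes found) and used only for symbols, gene types, gene order and overlaps.

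Whole reads were recovered from the steps between RPKM values: 9772 of the 9773 genes above 0 came out whole in all libraries within 0.005 reads plus a relative 3e-07. The length found is the smallest that gives whole reads, so reads are a lower estimate where it is ambiguous.

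Genes with at least 1 RPKM in 2 libraries were tested with limma 3.58.1 (R 4.3.3). The values were log2(RPKM + 1), with all 3 conditions in 1 fit (3 residual degrees of freedom, prior 6.87) that let the variance follow intensity, with Benjamini-Hochberg adjustment over all 7841 genes and a threshold of 0.05. The script was tested on simulated data. Fold changes rest on the pseudocount and understate those of low genes. Named members are the 20 with the widest margins, the 6 with the highest level at 5000 lux, the 5 largest and 5 smallest 1000 lux minus dark differences, the 3 on each side of the margin, those beside other members and those called at 1000 lux against darkness. NCU07441, NCU06714, NCU02882, NCU04656, NCU05307, NCU05364, NCU09004 and the noncoding RNA genes were chosen after their values were seen. The members, the rules and the lists were chosen with earlier results of these data known. No sequence was analysed here. Figures used Python 3.11.15 and matplotlib 3.10.9.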

Additional observations from a re-analysis of the deposited data

Results flagged for a closer look

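In 6 members (5.5%) both 1000 lux libraries lay below both dark libraries, where 28.5% of all genes tested did. Both 5000 lux libraries lay above both dark libraries, which the rule itself sets. Limma called none of the 6 lower at 1000 lux than in darkness. The 1000 lux minus dark differences (log2) were -0.37 in NCU08226, -0.25 in NCU16852 and NCU04932, -0.17 in NCU04656, -0.15 in NCU05364 and -0.09 in NCU05307. Limma called 5000 against 1000 lux in NCU08226, NCU04656 and NCU05364, but the choice of members used that difference, so this is no independent evidence. Whether the differences of the 2 lights from darkness have opposite signs was not tested.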

How the results depend on the processing

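The number of genes that met the rule was 48 with a pseudocount of 5 RPKM, 276, 55 and 19 with margins of 0.2, 0.4 and 0.5, and 105 to 228 without each library in turn, against 109. With no minimum level it was 121, and with median-of-ratios scaling 96. Members called at 5000 lux against darkness (51) numbered 33 with no filter on low values and 15 to 52 without each library. At 5000 against 1000 lux (22) they numbered 5 with no filter, 2 with no intensity trend, 34 with only the 2 groups compared, 36 with voom on recovered reads and 0 to 34 without each library. At 1000 lux against darkness (9) they numbered 5 with no filter and 3 to 10 without each library. Over all genes the calls in these 3 comparisons, higher and lower together, were 754, 237 and 1329, of which 525, 130 and 716 were higher. With no filter the first was 463 and the second 89, with no intensity trend they were 479 and 42, and without each library the ranges were 142 to 686, 19 to 354 and 425 to 1140. Quantile normalization gave 496 higher and 371 lower at 5000 lux against darkness, where the fit reported has 525 and 229. A fit without a library leaves 1 in its group, assumed to vary like the others. The causes of these changes were not tested.

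With the replicate number as a block the members called were 53, 25 and 8, all higher. Of all 7841 genes, 558, 130 and 737 were called higher in that fit. The labels do not say that a number marks a shared batch. The differences between replicates 1 and 2 correlated over genes at 0.028, -0.087 and 0.052 between pairs of conditions. Such low correlations do not decide whether a number pairs libraries, so this is unknown. Named but not run were the alternatives on promoter windows, since no sequence was used. In its shallowest library a member had a median of 282 reads and a minimum of 2, so counting error is widest in the low members. In 62 of 109 members (56.9%) the 95% counting interval of a 5000 lux library overlapped that of a dark or 1000 lux library. NCU09004, with 2671 to 4422 reads per library, is among them. The share over all genes is not given, and the rule itself sets the 5000 lux libraries above the rest. Nothing is read from this count.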

Other observations

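The 19 genes with a symbol that met the same rule were ad-8, ada-1, al-2, camk-4, ccg-8, cel-1, cel-2, col-20, gh61-5, gpr-5, gpr-6, gsy-1, ham-6, met-8, mig-3, mus-38, rca-1, set-9 and tim13. Among them cel-1 and cel-2 encode fatty acid synthase subunits, gsy-1 glycogen synthase, al-2 phytoene synthase of carotenoid synthesis and ad-8 an enzyme of purine synthesis. They were chosen by the same values as the members and were not tested.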
